A study of Homo sapiens with 16 samples.

Results

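The genes described here encode the proteins of the mitochondrial ribosome. They were taken by symbol from the deposited count table: every entry named MRPL or MRPS with a number and at most 1 letter, leaving out pseudogenes and numbered further copies. This gave 76 of the 33121 entries, 47 with a large subunit symbol (MRPL) and 29 with a small subunit symbol (MRPS). Of these 76, 74 had enough counts to be tested, among 15569 tested genes: all 47 large subunit members and 27 of the 29 small subunit members. The level of each was measured by poly-A RNA sequencing in HAP1, a near-haploid cell line of human origin derived from a chronic myeloid leukemia line that grows attached, kept in IMDM with fetal bovine serum.

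The 16 libraries form 4 groups of 4. The SLC30A10 knockout carries a deletion of SLC30A10, the gene of a manganese exporter of the cell surface, and its control set is labelled SLC30A10+/+. The second knockout carries a deletion of another gene and has a control set of its own, labelled wild type for that gene. Both control sets bear the same cell line identifier and each knockout bears its own, so each deletion is represented by 1 line, and the labels do not say whether it is 1 clone. Nothing in the labels says whether the 4 libraries of a group came from separate cultures, so the p-values measure only the spread between these libraries.

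The mitochondrial ribosome translates the few messenger RNAs of the mitochondrial genome, which encode core subunits of the respiratory chain and of the ATP synthase. Its ribosomal RNAs are made in the mitochondrion, whereas all of its proteins are encoded in the nucleus, made in the cytosol and imported, so that its assembly needs a supply of many nuclear gene products at once. By name and place, the proteins of MRPS30 and MRPS18A sit in the large subunit despite their symbols, and the protein of MRPS36 belongs to the 2-oxoglutarate dehydrogenase complex. Some of the proteins have a counterpart in the bacterial ribosome and the others are specific to mitochondria.

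Library totals ran from 16058856 to 16648151 counts, so that 3 counts correspond to 0.181 to 0.187 CPM, where CPM is counts per 1000000 after TMM scaling of the library sizes. SLC30A10 itself had 3 to 11 counts in its knockout and 6 to 9 in its control set, so its RNA does not check the label. Among markers of blood cells, PTPRC, CD34, GATA1, SPI1, CD33, ITGAM and CD3E lay at 0 to 0.549 CPM in all libraries. Among epithelial and mesenchymal markers, VIM lay at 353 to 660 CPM, KRT18 at 33.5 to 53.6 CPM and KRT8 at 2.48 to 10.5 CPM. EPCAM did not exceed 1.58 CPM and CDH1 did not exceed 0.303 CPM. In the SLC30A10 control set, library 3 stood apart in the large subunit genes. The total counts of called members in comparisons with that set alone are given with and without this library. Counts by subunit, by class, by list or against both control sets are given only with it.

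Promoters of these genes are known for sites of NRF1, of the ETS factor GABP and of YY1, which are shared by many nuclear genes of mitochondrial proteins. RefSeq (GRCh38.p14) gave a 300-base promoter, from 250 bases before the annotated start to 50 after it, for 68 of the 76 members. Exact matches were searched on both strands to GCGCATGCG for NRF1, CCGGAAGT for ETS factors and AAGATGGCG for YY1, none of which contains another. At least 1 of the 3 was found in 24 of the 68 promoters (35.3%), against 7.33% of the 35116 promoters in the table. The YY1 letters were in 13 (19.1%, against 1.75% of all promoters), the ETS letters in 11 (16.2%, against 4.14%) and the NRF1 letters in 3 (4.41%, against 1.92%). All promoters here means every entry of the table, not limited to expressed genes or to 1 entry per gene. The shares therefore do not show what is particular to these genes. A match is a description of the letters and shows no binding.

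In 7 of the 68 members (10.3%, against 0.629% of all promoters) the YY1 letters stood complete on the gene's own strand within the first 30 transcribed bases. These first 30 bases are shown for all 7, with the match in capitals, to show where it stands in each. They are MRPL38 (chr17:75904855-75904884, minus strand), MRPL42 (chr12:93467514-93467543, plus strand), MRPL46 (chr15:88467359-88467388, minus strand), MRPS10 (chr6:42217832-42217861, minus strand), MRPS18A (chr6:43687762-43687791, minus strand), MRPS24 (chr7:43869488-43869517, minus strand) and MRPS30 (chr5:44808947-44808976, plus strand).
MRPL38: ggagggAAGATGGCGgcgccctggtggcga
MRPL42: attgaaacAAGATGGCGggttcgtggtgag
MRPL46: gagaacgaAAGATGGCGgcgcccgtaaggc
MRPS10: gggaccggcAAGATGGCGgcgcggacagcg
MRPS18A: aggtttttgAAGATGGCGgccctcaaggct
MRPS24: cccgcgctccgcttggcccAAGATGGCGgc
MRPS30: ggaatcgcgggcaAAGATGGCGgcggccag
The match began 6 bases after the first transcribed base in MRPL38, 8 after it in MRPL42 and MRPL46, 9 after it in MRPS10 and MRPS18A, 13 after it in MRPS30 and 19 after it in MRPS24. In the other 6 members with these letters the match lay elsewhere. It began 23 bases after the first transcribed base in MRPL50 and MRPS18B and 35 after it in MRPL22. It began 36 bases before it in MRPL36, 98 and 64 before it in MRPL52, and 223 before it in MRPL32.

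In each of the 11 members with the ETS letters at least 1 match began before the first transcribed base, from 6 bases before it in MRPL52 to 209 in MRPL38, and MRPS22 held a further match that began 4 bases after it. Below are the 130 bases that end at the first transcribed base for MRPL20, the member with the largest difference between the control sets (chr1:1407293-1407422, minus strand), for MRPL3, the member with the highest level (chr3:131502971-131503100, minus strand), and for MRPL16, the member called lower in both knockouts (chr11:59810778-59810907, minus strand). ETS matches are in capitals, on either strand.
MRPL20: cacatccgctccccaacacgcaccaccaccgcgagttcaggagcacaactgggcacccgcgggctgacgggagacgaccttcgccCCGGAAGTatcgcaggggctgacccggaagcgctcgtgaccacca
MRPL3: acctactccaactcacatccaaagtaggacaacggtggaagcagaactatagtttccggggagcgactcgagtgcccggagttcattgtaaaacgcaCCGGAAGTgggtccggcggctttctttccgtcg
MRPL16: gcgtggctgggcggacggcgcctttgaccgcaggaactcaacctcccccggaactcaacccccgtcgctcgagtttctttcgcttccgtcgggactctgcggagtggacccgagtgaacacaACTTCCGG
The match began 44 bases before the first transcribed base in MRPL20, 32 before it in MRPL3 and 7 before it in MRPL16, where the reverse complement ACTTCCGG ends on the first transcribed base. The same stretch of MRPL34, the member with the largest change in the second knockout (chr19:17292444-17292573, plus strand), held none of the 3 words in these letters.
MRPL34: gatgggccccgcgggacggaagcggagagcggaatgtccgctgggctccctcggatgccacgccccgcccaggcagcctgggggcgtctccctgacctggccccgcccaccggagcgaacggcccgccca

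The members were all expressed at a moderate level, apart from those discussed last. Over the 74 tested members the median of the group means was 65.6 CPM in the SLC30A10 control set, 62.2 in the SLC30A10 knockout, 58.6 in the second control set and 58.4 in the second knockout. The lowest group mean was 11.9 CPM, for MRPS18C in the second knockout, and the highest was 254 CPM, for MRPL3 in the SLC30A10 knockout. Replicate libraries lay close together, with a median coefficient of variation over members of 3.99% to 5.40% by group.

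The lowest and highest group means above are in CPM, not corrected for transcript length. Levels of different genes were otherwise compared per kilobase of the principal transcript in GENCODE v29, which was found for 69 of the 76 members. On that scale, in CPM per kb in the SLC30A10 control set, MRPL3 stood highest at 134 ± 7.23 (SD, n = 4). MRPL18 (123 ± 6.91), MRPL37 (122 ± 5.83) and MRPL20 (115 ± 12.0) followed, and the means of these 3 differed by less than the SD of MRPL20. Among the tested members MRPS18C (9.74 ± 0.261), MRPS23 (8.22 ± 0.908) and MRPS33 (5.75 ± 0.380) stood lowest. The untested MRPS24 and MRPS18B lay below these and are described last. The transcript length used for MRPS23 was 5621 bases and that for MRPS33 was 4241 bases, and which of their transcripts these cells make was not tested.

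Summed over the 47 tested large subunit members, the SLC30A10 control libraries held 3429, 3408, 3740 and 3387 CPM and the SLC30A10 knockout libraries 3581, 3559, 3568 and 3552 CPM. Library 3 of the control set is the highest of all 16, and the 4 knockout libraries lie between it and the other 3. The second control libraries held 3320.4, 3196, 3226 and 3305 CPM and the second knockout libraries 3306, 3143, 3096 and 3166 CPM. Each of the 8 libraries of the SLC30A10 knockout and its control was above each of the 8 of the second knockout and its control.

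The small subunit showed the same separation of the sets. Its 27 tested members summed to 1836 ± 67.9 CPM (SD, n = 4) in the SLC30A10 control set, 1804 ± 25.7 in the SLC30A10 knockout, 1646 ± 20.7 in the second control set and 1633 ± 48.5 in the second knockout. The lowest library of the SLC30A10 knockout and its control held 1783 CPM and the highest of the other 8 held 1696 CPM. The log2 ratio of knockout to control was 0.03 for the large and -0.025 for the small subunit in the SLC30A10 knockout. It was -0.04 and -0.01 in the second knockout, against 0.10 and 0.16 for the ratio of the SLC30A10 control set to the second control set. For both subunits the libraries of each knockout overlapped those of its control, whereas the control sets did not overlap each other. In the large subunit the overlap of the SLC30A10 knockout with its control came only from control library 3, at 3740 CPM. The other control libraries lay at 3387 to 3429 CPM, below the 3552 to 3581 CPM of the knockout libraries. The large subunit ratios of 0.03 and 0.10 thus both rest in part on that library. In such a sum, fewer expressing cells and less RNA per cell cannot be told apart. No test is given for these sums, since the members were chosen with earlier results known.

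**Figure D1:**
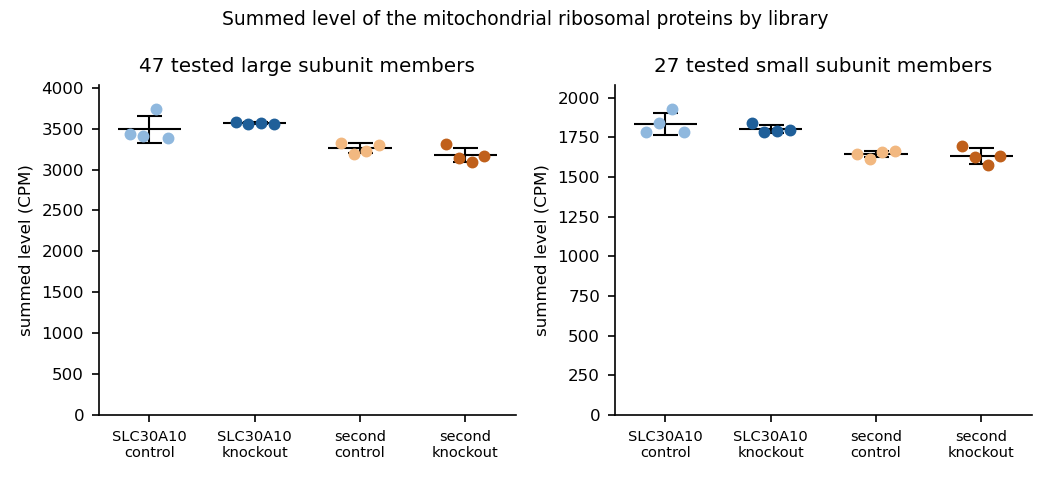
Summed level (CPM, linear axis from 0) of the 47 tested large subunit members (left) and the 27 tested small subunit members (right) in each of the 16 libraries; points are libraries in replicate order, lines are group means and bars are SD (n = 4). The 8 libraries of the SLC30A10 knockout and its control, at 3387 to 3740 CPM for the large subunit, lie above the 8 of the second knockout and its control, at 3096 to 3320.4 CPM.

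In the SLC30A10 knockout the members changed little and in both directions. By edgeR's quasi-likelihood test with Benjamini-Hochberg adjustment over all tested genes, 21 of the 74 passed an adjusted p of 0.05 (28.4%), where 41.4% of all tested genes did. Of the 21, 11 were higher and 10 lower than in the control set, where 21.2% of all tested genes were higher and 20.2% lower. The log2 fold changes of the 74 ran from -0.25 to 0.25, with a median of -0.0049 against -0.0048 for all tested genes. Without replicate 3 of the control set 19 passed, 13 higher and 6 lower. None of the 21 reached 0.5 on the log2 scale, which 12.7% of all tested genes both reached and passed.

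The large subunit held 16 of the 21 calls, 9 higher and 7 lower of 47, and the small subunit 5, 2 higher and 3 lower of 27. Among the large subunit members with a bacterial counterpart 8 rose and 2 fell of 30, whereas among those specific to mitochondria 1 rose and 5 fell of 17. This split was not tested. In the small subunit, the 3 that fell were among the 15 tested members with a bacterial counterpart and the 2 that rose among the 9 specific to mitochondria.

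The highest rises belonged to members at different places of the ribosome. MRPL12, the counterpart of the bacterial stalk protein L7/L12 that recruits translation factors, was at 83.9, 83.3, 93.7 and 84.9 CPM in the control libraries and at 98.5, 99.3, 109 and 104 CPM in the knockout. All 4 knockout libraries lay above all 4 controls, and the log2 fold change was 0.25 ± 0.05 (SE, adjusted p = 0.000149, edgeR). The exons of MRPL12 share 68.2% of their bases with AC139530.2, a protein-coding entry on the same strand, and how reads in shared bases were counted is not given in the sources used here, so its value is uncertain. MRPL18, the counterpart of the L18 protein that binds the 5S RNA of bacterial ribosomes, was at 114, 120.1, 129.9 and 117 CPM in the control libraries and at 142, 148, 139 and 141 CPM in the knockout. The groups did not overlap, and MRPL18 rose by 0.24 ± 0.04 (log2, SE, adjusted p = 5.95e-05, edgeR).

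In the small subunit both rises were in proteins that bacteria lack. MRPS22 was at 68.6, 64.8, 67.8 and 62.7 CPM in the control libraries and at 78.0, 77.6, 74.1 and 76.8 CPM in the knockout, without overlap. It rose by 0.22 ± 0.05 (log2, SE, adjusted p = 0.000424, edgeR). MRPS26 was at 66.2, 66.4, 66.5 and 65.8 CPM in the control libraries and at 78.2, 70.4, 81.4 and 77.5 CPM in the knockout. Its control libraries lay within 1 CPM of each other and all below the knockout libraries, and it rose by 0.21 ± 0.04 (log2, SE, adjusted p = 0.000322, edgeR). The other 7 rises were those of MRPL48 (0.24), MRPL55 (0.19), MRPL4 (0.17), MRPL19 (0.16), MRPL3 (0.15), MRPL24 (0.14) and MRPL28 (0.13) on the log2 scale. The exons of MRPL4 share 13.8% of their bases with AC011511.2 on the opposite strand.

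Falls were of the same size. MRPL39, a large subunit protein specific to mitochondria, was at 85.7, 87.9, 86.8 and 84.1 CPM in the control libraries and at 70.7, 74.5, 70.8 and 76.1 CPM in the knockout, without overlap. It fell by 0.24 on the log2 scale (SE 0.05, adjusted p = 0.000113, edgeR). MRPS6, the counterpart of bacterial S6, was at 72.2, 75.7, 79.5 and 73.5 CPM in the control libraries and at 68.7, 62.5, 60.3 and 62.1 CPM in the knockout. Here too the groups did not overlap, and MRPS6 fell by 0.25 on the log2 scale (SE 0.05, adjusted p = 0.00023, edgeR).

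MRPS6 and MRPL39 both lie on chromosome 21. Of the 10 tested genes nearest to MRPL39, 5 were called lower and 1 higher in this knockout, with a median log2 fold change of -0.19. Of the 10 nearest to MRPS6, 2 were called lower and 2 higher, with a median of -0.05. The part of the neighbourhood in the change of MRPL39 was not tested.

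The other falls were those of MRPS14 (-0.25), MRPL40 (-0.23), MRPL15 (-0.22), MRPL53 (-0.18), MRPL44 (-0.17), MRPL50 (-0.16), MRPL16 (-0.15) and MRPS2 (-0.14) on the log2 scale. The exons of MRPL53 share 45.2% of their bases with CCDC142 on the same strand and those of MRPS14 share 13.5% with CACYBP on the opposite strand. Also on the opposite strand, those of MRPL44 share 12.9% with AC073641.1 and those of MRPS2 share 10.1% with AL161452.1. These values are uncertain for the same reason as that of MRPL12. Of the 74 tested members, 24 share at least 10% of their exon bases with another annotated gene, 9 of them on the same strand. The call of MRPS2 (adjusted p = 0.0349, edgeR) was lost without any 1 of 5 libraries, replicate 2 or 3 of the control or replicate 1, 2 or 3 of the knockout, with adjusted p up to 0.153 and log2 fold changes from -0.19 to -0.10 over all single omissions.

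In the second knockout fewer members passed, and all that did were of the large subunit, of which 12.8% passed. Of the 74, 6 passed (8.11%), where 13.7% of all tested genes did, 2 of them higher (6.67% of all tested genes) and 4 lower (7.03% of all tested genes). The median of the 74 was -0.03 against -0.0024 for all tested genes. Of the 27 small subunit members none passed by edgeR, and none passed by DESeq2's Wald test. At an unadjusted p under 0.05 by edgeR, 6 of the 27 did, as did 11 of the 47 large subunit members and 4033 of the 15569 tested genes. A difference between the subunits was not tested.

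MRPL34, the counterpart of bacterial L34, showed the largest change of any member in any comparison. It was at 39.0, 41.1, 43.4 and 45.8 CPM in the second control libraries and at 71.8, 73.1, 71.7 and 68.9 CPM in the second knockout. The lowest knockout library lay far above the highest control, and the log2 fold change was 0.75 ± 0.06 (SE, adjusted p = 4.46e-10, edgeR). In the SLC30A10 knockout MRPL34 was at 48.9 to 52.6 CPM against 44.7 to 58.4 CPM in its control (log2 fold change 0.02 ± 0.06), and the difference between the knockout effects was -0.73 ± 0.09 (adjusted p = 3.56e-07, edgeR).

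MRPL34 lies at chr19:17292573-17306843 among genes that changed in the same way. The 5 nearest tested genes on each side were all called higher in the second knockout, with a median log2 fold change of 0.92. They were, in order, NR2F6 (0.82), USHBP1 (1.46), BABAM1 (0.90), ANKLE1 (0.99) and ABHD8 (0.80) before MRPL34, and DDA1 (0.91), ANO8 (1.13), GTPBP3 (1.13), BST2 (0.88) and MVB12A (0.94) after it. GTPBP3 encodes an enzyme that modifies mitochondrial transfer RNAs. MRPL34 rose less than each of these 10. In the SLC30A10 knockout 2 of the 10 were called higher (ANKLE1 and BST2) and 1 lower (DDA1). For the other members the median of the neighbours ran from -0.11 to 0.12 in the second knockout. Exons of MRPL34 share 13.2% of their bases with ABHD8 on the opposite strand.

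**Figure D2:**
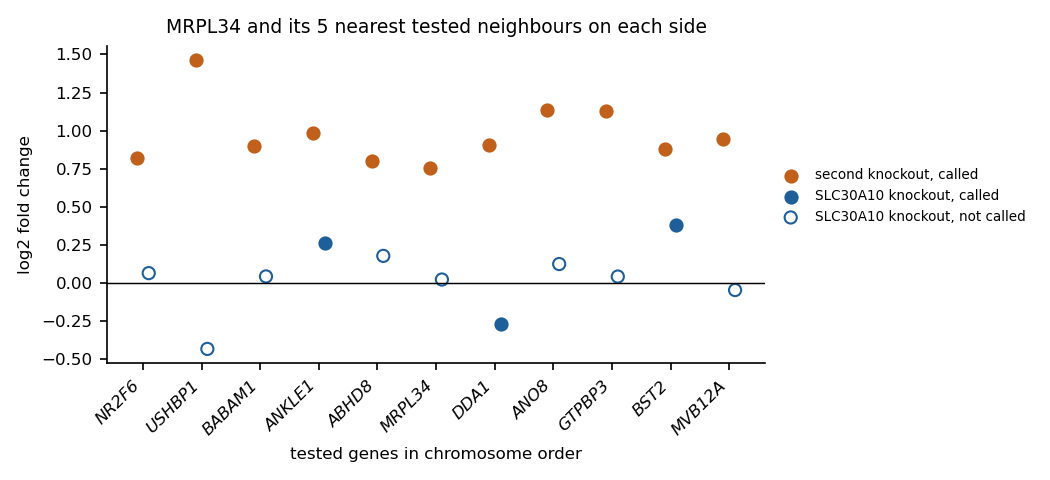
Log2 fold change (vertical axis) of MRPL34 and of its 5 nearest tested neighbours on each side, in chromosome order, in the second knockout (orange) and the SLC30A10 knockout (blue), each against its control; filled points passed an adjusted p of 0.05 and open points did not. All 11 genes lie between 0.75 and 1.46 in the second knockout and between -0.43 and 0.38 in the SLC30A10 knockout.

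MRPL16, the counterpart of bacterial L16 beside the peptidyl transferase centre, fell in both knockouts. It was at 129, 122, 118 and 126 CPM in the second control libraries and at 85.4, 90.6, 90.9 and 90.8 CPM in the second knockout. The groups are well apart, and MRPL16 fell by 0.47 on the log2 scale (SE 0.04, adjusted p = 1.36e-09, edgeR). In the SLC30A10 knockout it was at 101, 97.0, 99.1 and 104 CPM against 113, 107, 116 and 109 CPM in its control. Here too the groups did not overlap, and it fell by 0.15 (log2, SE 0.04, adjusted p = 0.00457, edgeR). The fall was deeper in the second knockout, by 0.32 ± 0.06 (log2, SE, adjusted p = 0.000115 for the difference of the effects, edgeR). The 10 neighbours of MRPL16 on chromosome 11 had median log2 fold changes of -0.07 in the second knockout and 0.11 in the SLC30A10 knockout. Of these 10, 3 were called lower and 0 higher in the second knockout, and 1 lower and 4 higher in the SLC30A10 knockout.

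MRPL18 and MRPL19 went opposite ways in the knockouts. MRPL18, higher in the SLC30A10 knockout as above, was at 118, 112, 110.3 and 116 CPM in the second control libraries and at 107, 101, 96.3 and 103 CPM in the second knockout. The groups did not overlap, and it fell by 0.16 (log2, SE 0.04, adjusted p = 0.0118, edgeR). The effects differed by 0.40 ± 0.06 (log2, SE, adjusted p = 1.09e-05, edgeR).

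MRPL19, the counterpart of bacterial L19 at the interface of the subunits, was at 139.9, 137, 140.2 and 137 CPM in the SLC30A10 control libraries and at 149, 162, 151 and 159 CPM in that knockout. It rose there by 0.16 ± 0.04 (log2, SE, adjusted p = 0.00118, edgeR), without overlap. It was at 146, 148, 156 and 148 CPM in the second control libraries and at 140.3, 134, 135 and 131 CPM in the second knockout, and fell by 0.14 (log2, SE 0.04, adjusted p = 0.0111, edgeR). These groups also did not overlap, but without replicate 3 of the second control set this fall was -0.12 with an adjusted p of 0.0643 by edgeR. The effects differed by 0.31 ± 0.05 (log2, SE, adjusted p = 7.8e-05, edgeR).

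The other 2 calls in the second knockout were small. MRPL54, specific to mitochondria, was at 23.6, 20.9, 20.1 and 21.99 CPM in the control libraries and at 26.99, 26.0, 22.8 and 25.7 CPM in the knockout, and rose by 0.23 ± 0.07 (log2, SE, adjusted p = 0.0193, edgeR). Its groups overlapped by 1 library. MRPL11, the counterpart of bacterial L11 at the site where translation factors dock, was at 112, 109.8, 109 and 113 CPM in the control libraries and at 103, 99.8, 101 and 98.99 CPM in the knockout. These groups did not overlap, and it fell by 0.14 (log2, SE 0.04, adjusted p = 0.0194, edgeR).

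**Figure D3:**
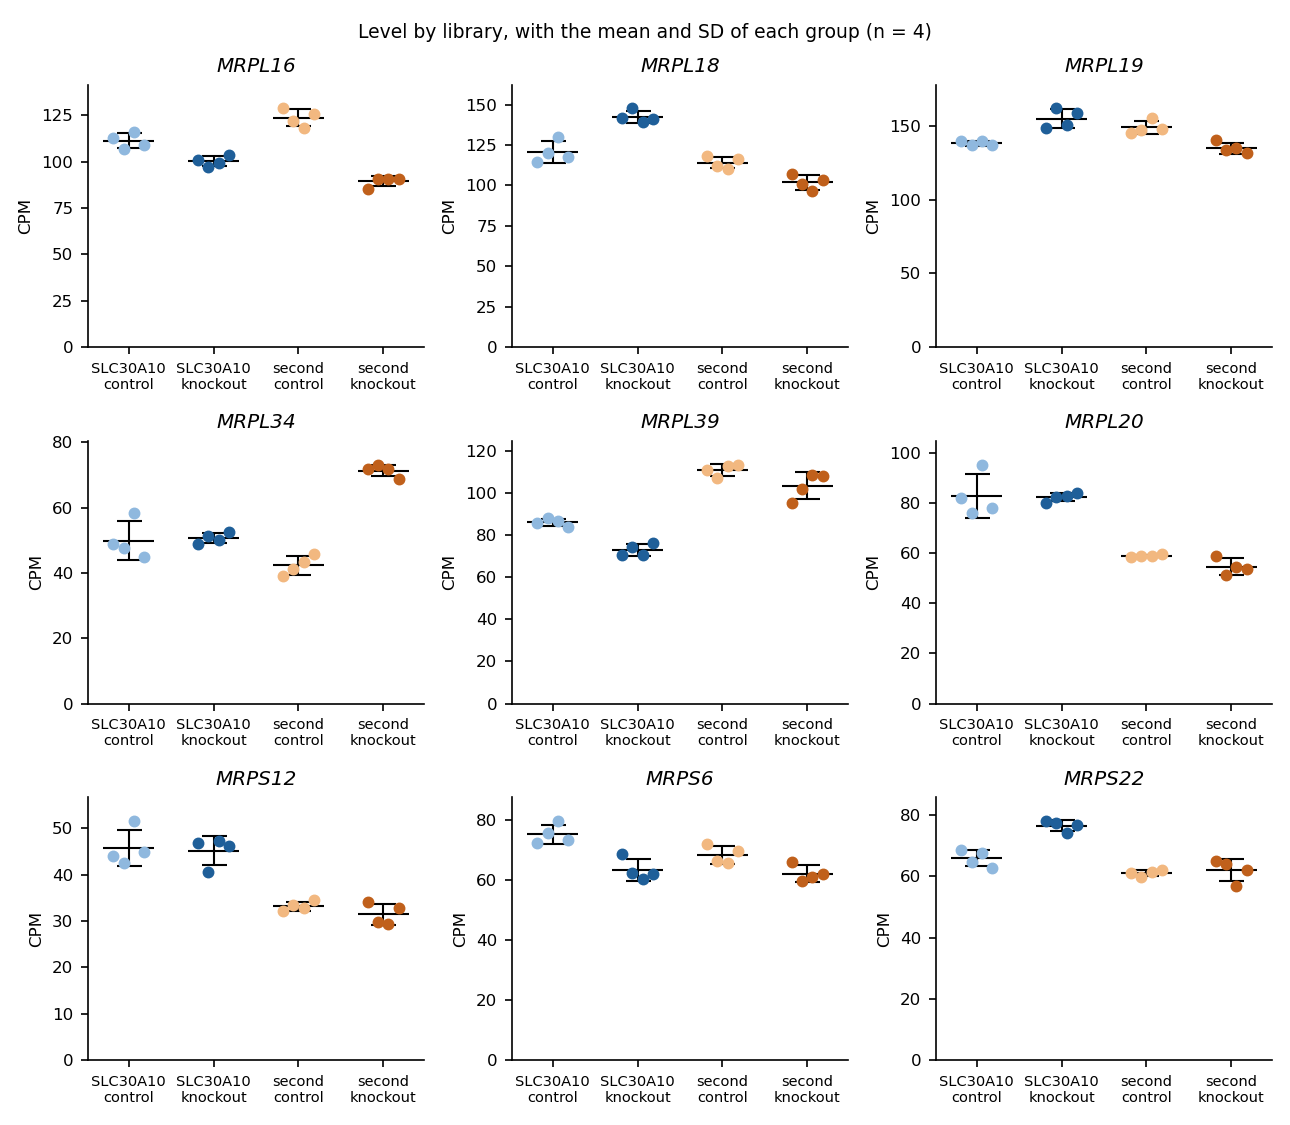
Level (CPM, linear axes from 0) of 9 members in each library of the 4 groups; points are libraries in replicate order, lines are group means and bars are SD (n = 4). MRPL34 stands at 68.9 to 73.1 CPM in the second knockout, above all other libraries, MRPL16 is lower in both knockouts than in their controls, and MRPL20 and MRPS12 follow the control sets, not the knockouts.

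Between the knockouts, the difference of effects passed for 16 of the 74 members (21.6%), where 31.3% of all tested genes passed. For 11 the SLC30A10 knockout had the more positive effect (16.7% of all tested genes) and for 5 the second knockout had it (14.6%). Beside MRPL16, MRPL18, MRPL19 and MRPL34 these were MRPL12, MRPL3, MRPL4, MRPL28, MRPL48, MRPS15, MRPS22 and MRPS26 on the one side and MRPL40, MRPL44, MRPS2 and MRPS30 on the other. Without replicate 3 of the SLC30A10 control set 15 passed, 13 and 2 in these directions. The count fell to 10 without replicate 4 of the SLC30A10 control set, without replicate 4 of the second control set, or without replicate 2 of the second knockout.

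The control sets differed from each other in more members than either knockout did from its control. Of the 74, 39 passed (52.7%), where 39.3% of all tested genes did. The direction was uneven: in the SLC30A10 control set 36 were higher and 3 lower, where 18.5% of all tested genes were higher and 20.8% lower. The median log2 difference was 0.13 over the 74 and -0.0061 over all tested genes. The level of 37 members in the SLC30A10 control libraries lay wholly above that in the second control libraries, and that of 3 lay wholly below, where 17.4% of all tested genes lay wholly above and 18.9% wholly below. Without replicate 3 of the SLC30A10 control set 29 members were higher and 3 lower, and the counts over all single omissions were 32 to 42.

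Both subunits took part. Of the large subunit 20 were higher and 3 lower of 47, and of the small subunit 16 were higher and 0 lower of 27. DESeq2's Wald test likewise called 0 of the 27 lower, and all 27 had a positive log2 difference, from 0.01 to 0.46. Among members with a bacterial counterpart 12 of 30 large subunit and 10 of 15 small subunit members were higher. Among those specific to mitochondria 8 of 17 and 5 of 9 were.

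MRPL20, whose bacterial counterpart is needed early in assembly of the large subunit, was at 81.9, 76.0, 95.2 and 78.0 CPM in the SLC30A10 control libraries and at 58.4, 58.9, 58.9 and 59.5 CPM in the second control libraries. The second set is tight and lies below every library of the first, and the log2 difference was 0.49 ± 0.06 (SE, adjusted p = 2.68e-07, edgeR). The exons of MRPL20 share 10.5% of their bases with RN7SL657P on the same strand. MRPL20 passed in neither knockout, at 80.2 to 83.9 CPM in the SLC30A10 knockout and 51.2 to 59.0 CPM in the second (log2 fold changes -0.01 ± 0.05 and -0.11 ± 0.06).

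MRPS12, the counterpart of bacterial S12 at the decoding centre, was at 44.0, 42.6, 51.5 and 44.9 CPM in the SLC30A10 control libraries and at 32.1, 33.3, 32.7 and 34.4 CPM in the second control libraries. The sets did not overlap, and the log2 difference was 0.46 ± 0.06 (SE, adjusted p = 4.33e-06, edgeR). Its exons share 16.3% of their bases with SARS2 on the opposite strand. MRPS2, the counterpart of bacterial S2, was at 86.3, 98.5, 104 and 90.8 CPM against 74.6, 75.7, 75.6 and 69.9 CPM, a log2 difference of 0.36 ± 0.05 (SE, adjusted p = 1.36e-05, edgeR) without overlap. MRPS7, the counterpart of the bacterial S7 protein of the subunit's head, was at 65.7, 69.6, 75.8 and 64.3 CPM against 57.7, 54.4, 59.2 and 56.7 CPM, a log2 difference of 0.27 ± 0.05 (SE, adjusted p = 0.000222, edgeR) without overlap.

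MRPL46 and MRPS11 are neighbours on chromosome 15 that point away from each other, with annotated starts 320 bases apart (MRPL46 at chr15:88459478-88467388 on the minus strand, MRPS11 at chr15:88467708-88480776 on the plus strand). MRPL46, a large subunit protein specific to mitochondria, was at 49.6, 49.7, 58.7 and 48.3 CPM in the SLC30A10 control libraries and at 40.3, 41.0, 39.7 and 37.7 CPM in the second control libraries, a log2 difference of 0.38 ± 0.07 (SE, adjusted p = 7.18e-05, edgeR). MRPS11, the counterpart of bacterial S11, was at 69.8, 76.2, 90.4 and 71.3 CPM against 61.8, 59.6, 66.8 and 65.3 CPM, a log2 difference of 0.28 ± 0.06 (SE, adjusted p = 0.000709, edgeR). Neither pair of sets overlapped, and neither gene passed in a knockout. MRPS17, the counterpart of bacterial S17, had a log2 difference of 0.40 ± 0.08 (SE). On the same strand the exons of MRPS17 share 21.8% of their bases with AC092647.5 and those of MRPL46 share 11.3% with AC013489.1.

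The 3 members lower in the SLC30A10 control set were MRPL39, MRPL16 and MRPL19. MRPL39 was at 111, 107, 113 and 113 CPM in the second control libraries, above the 84.1 to 87.9 CPM of the SLC30A10 control libraries, a log2 difference of -0.37 ± 0.04 (SE, adjusted p = 5.33e-07, edgeR). Its level thus ran, from high to low, through the second control set (111 ± 2.93 CPM), the second knockout (103 ± 6.30), the SLC30A10 control set (86.1 ± 1.64) and the SLC30A10 knockout (73.0 ± 2.72), of which only the first and the next overlapped. MRPL16 differed by -0.15 ± 0.04 and MRPL19 by -0.11 ± 0.04 (log2, SE), and the call of MRPL19 was lost without any 1 of 6 of the 8 control libraries (all but replicate 3 of the SLC30A10 set and replicate 1 of the second set), with adjusted p up to 0.127 by edgeR. MRPS6, higher by 0.14 ± 0.05 (log2, SE), lost its call without replicate 3 of the SLC30A10 set or without replicate 2 or 3 of the second set, with adjusted p up to 0.0753 by edgeR.

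**Figure D4:**
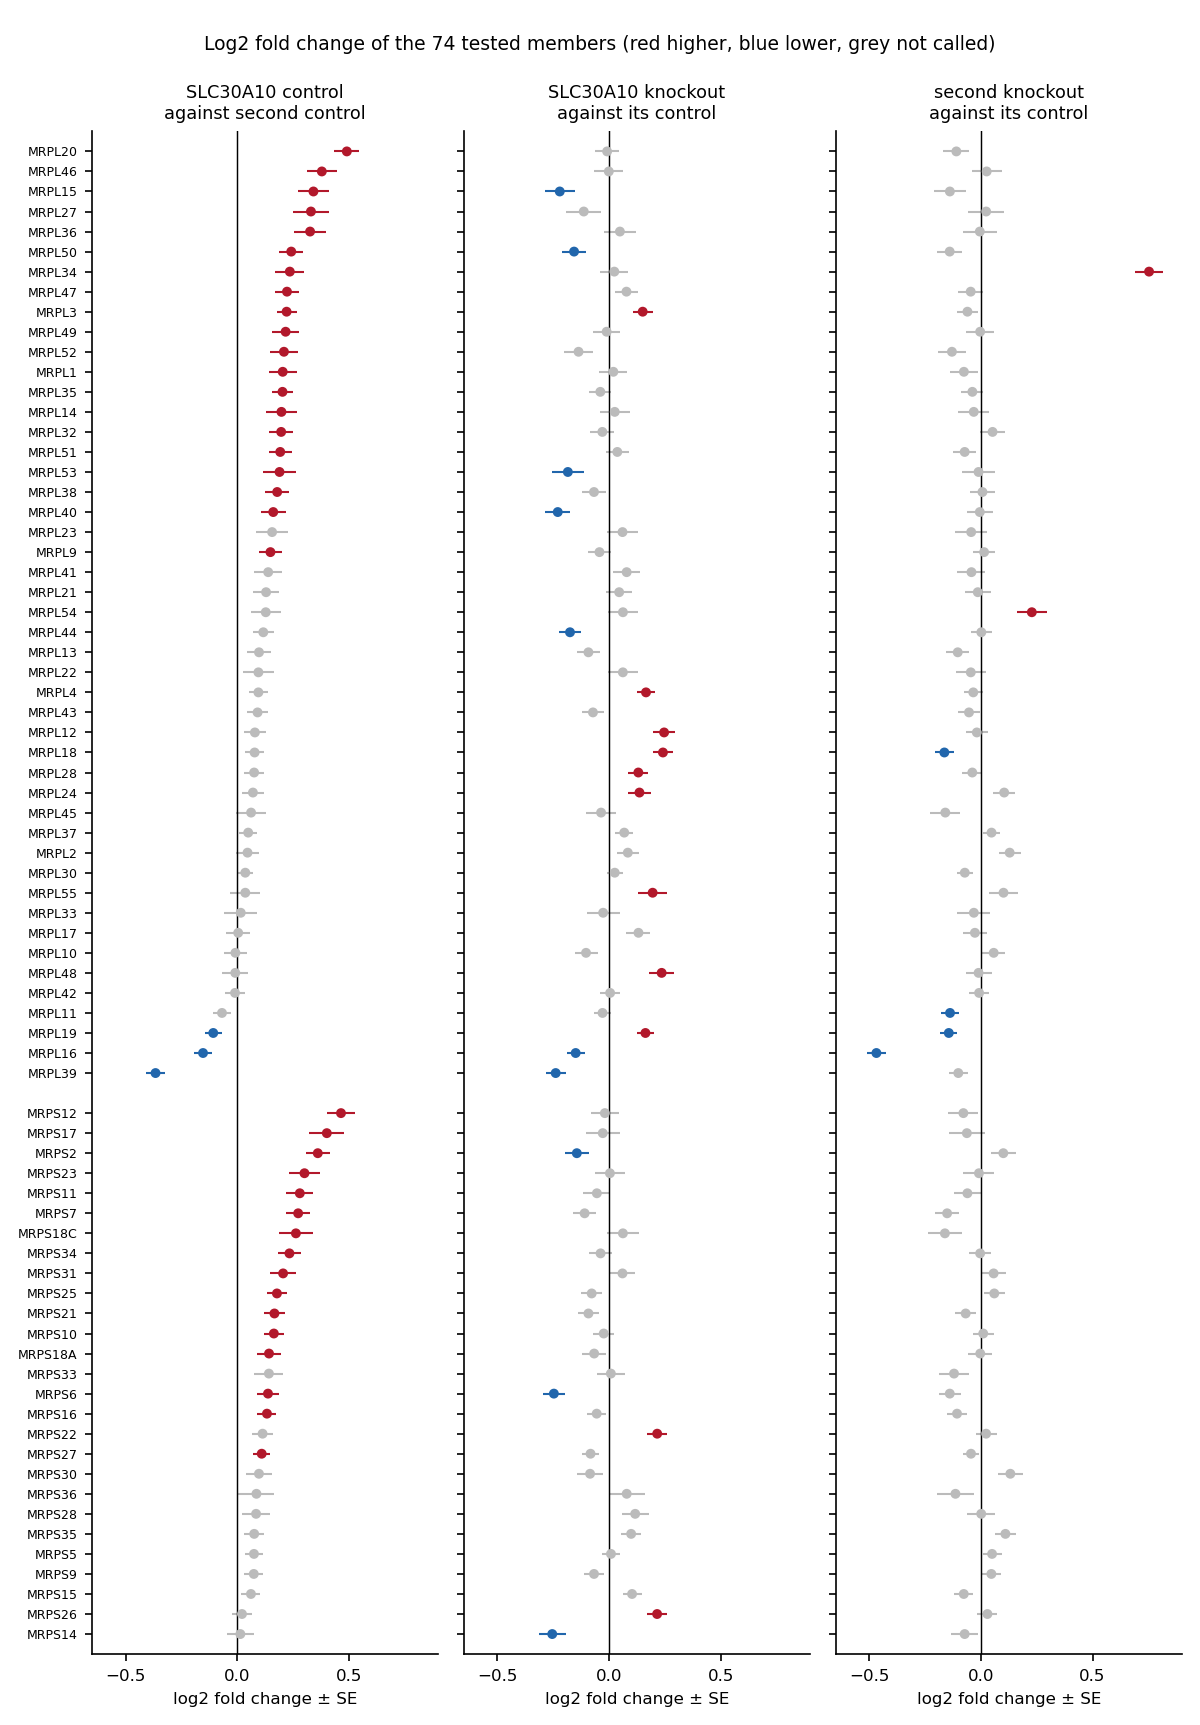
Log2 fold change ± SE (horizontal axes) of the 74 tested members, 1 row each, the 47 large subunit members above and the 27 small subunit members below, ordered by the difference between the control sets (left); the middle panel shows the SLC30A10 knockout and the right panel the second knockout, each against its control. Red points passed an adjusted p of 0.05 as higher, blue points as lower and grey points did not pass: 36 red and 3 blue on the left, 11 and 10 in the middle, 2 and 4 on the right.

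What set the control sets apart (growth, handling, sequencing or the state of the line) cannot be told apart from the labels. It bears on the knockout counts. Against the mean of both control sets, 35 members passed in the SLC30A10 knockout, 29 higher and 6 lower, where 42.8% of all tested genes passed, 21.9% higher and 21% lower. In the second knockout 33 members passed, 2 higher and 31 lower, where 34.3% of all tested genes passed, 17.5% higher and 16.8% lower. The split of 11 higher and 10 lower, and that of 2 and 4, hold only against each knockout's own control set. The knockout comparisons share these control libraries with the comparison of the control sets, so the values of a member in them are not independent. Over the 3 pairwise comparisons, 22 of the 74 members passed in none. The same share over all tested genes was not counted, so this cannot be called few or many.

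The ETS letters were in the promoters of 9 of the 34 members with a promoter that were higher in the SLC30A10 control set (26.5%) and of 1 of the 29 that did not pass (3.45%), and MRPL16, lower there, also had them. The YY1 letters were in 8 of the 34 (23.5%) and 3 of the 29 (10.3%). These shares are descriptions with no test.

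Other genes of the pathway were compared between the control sets by the lists described here, beside the 18.5% of all tested genes that were higher and the 20.8% that were lower. Of 28 listed factors of mitochondrial ribosome assembly and ribosomal RNA modification, 15 passed as higher and 2 as lower in the SLC30A10 control set, with a median log2 difference of 0.15, and 11 did not pass. The higher ones included MPV17L2 (0.48 ± 0.07), MTG2 (0.43 ± 0.07), a GTPase of large subunit assembly, and MRM1 (0.50 ± 0.09), a methyltransferase of the large ribosomal RNA. Of 18 mitochondrial translation factors, 10 were higher, 2 lower and 6 did not pass, with a median of 0.15. Among the higher ones were PDF (0.75 ± 0.12), which removes the formyl group of new proteins, TACO1 (0.37 ± 0.06), a translational activator of COX1, and the elongation factor GFM1 (0.30 ± 0.05). Of 7 further ribosomal proteins with other symbols, 2 were higher, MRP63 (0.38 ± 0.06) and AURKAIP1 (0.15 ± 0.06), and 5 did not pass. Of 10 tested promoter-binding factors and coactivators of mitochondrial genes, 4 were higher, 1 lower and 5 did not pass, among them the coactivators PPRC1 (0.60 ± 0.05) and PPARGC1B (0.58 ± 0.08), whereas the ETS factor GABPA was lower (-0.18 ± 0.05).

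In the SLC30A10 knockout, where 21.2% of all tested genes were higher and 20.2% lower, 1 assembly factor was higher and 5 were lower of 28. FASTKD2, which binds the large ribosomal RNA and is needed for large subunit assembly, had 917 to 1024 counts in the control libraries and 1 to 4 in the knockout libraries (adjusted p = 3.35e-25, edgeR). In the same libraries the 47 large subunit members had a median log2 fold change of 0.02. C1QBP rose by 0.25 ± 0.04, and MTG2 fell by 0.29 (SE 0.07) on the log2 scale. Of the translation factors 2 were higher and 3 lower of 18, among them PDF, which fell by 0.59 (SE 0.12), LRPPRC (0.18 ± 0.04), which stabilises mitochondrial messenger RNAs, and GUF1, which fell by 0.16 (SE 0.04). Of the promoter-binding factors 5 of 10 were lower and the other 5 did not pass, with a median of -0.15: YY1 fell by 0.15 (SE 0.04), GABPB1 by 0.24 (SE 0.07) and NRF1 by 0.21 (SE 0.06) on the log2 scale. Of the ribosomal proteins with other symbols MRP63 fell by 0.28 (SE 0.06) and PTCD3 rose by 0.09 ± 0.04.

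In the second knockout, where 13.7% of all tested genes passed, 1 of the 28 assembly factors did. FASTKD2 had 859 to 927 counts in the second control libraries and 517 to 623 in the second knockout, and fell by 0.64 on the log2 scale (SE 0.06, adjusted p = 4.25e-09, edgeR). None of the 18 translation factors and none of the 7 other ribosomal proteins passed by edgeR or by DESeq2's Wald test. At an unadjusted p under 0.05 by edgeR, 2 and 0 of them did, where 4033 of the 15569 tested genes did. Of the 10 promoter-binding factors MYC passed, at 1438 to 1564 CPM in the control and 1712 to 2161 CPM in the knockout (0.43 ± 0.07, log2, SE).

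Among the members, the pattern most like that of MRPL18, which had the smallest adjusted p in the SLC30A10 knockout, was that of MRPS15, with a Pearson r of the log CPM over the 16 libraries of 0.948. MRPL3 (0.933) and MRPL4 (0.894) followed. For MRPL34, which had the smallest adjusted p in the second knockout, the most alike were MRPL54 (0.651), MRPS30 (0.519) and MRPL2 (0.468). These are descriptions over libraries that fall into 4 groups.

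Members that could not be tested, or whose reads are shared, complete the account. MRPS18B, a small subunit member grouped here with those specific to mitochondria, was listed at 0 in all 16 libraries. So were its 6 numbered copies and the neighbouring gene PPP1R10. Of the 81 symbols that the table lists with 6 further copies, 23 (28.4%) stood at 0 throughout. MRPS24, the other untested member, had 0 to 8 counts per library, and its read-through with URGCP had 0 to 1. Whether an entry listed at 0 was silent was not tested.

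MRPL45, a protein of the large subunit near the inner membrane, had 302 to 411 counts per library, and its second numbered entry held 858 to 1095. With the copies summed, MRPL45 fell in the second knockout by 0.14 (log2, SE 0.05, adjusted p = 0.0486, edgeR), whereas the member entry alone did not pass (-0.16 ± 0.07). For MRPS36 the numbered copy held 51 to 89 counts per library, and no comparison of the sum passed.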

How the data were processed

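Poly-A RNA of HAP1 cells was sequenced as paired ends in 16 libraries, 4 in each of 4 groups. Reads were processed with HISAT2, featureCounts and DESeq2 on hg38 (GRCh38), per the submitters' processing notes; versions, annotation, strand setting and the handling of shared reads are not given in the sources used here. The authors deposited raw counts per gene symbol, which were used as deposited, and a table of normalised signal, which equals the deposited counts divided by a constant per library to within 8.69e-06 counts and was used only for its scaling. The table holds 3103 numbered further copies of symbols, which were left out of the members. The deleted gene of the second knockout is not reported here.

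Genes were kept by filterByExpr (minimum count 10, minimum total count 15), which left 15569. They were fitted with edgeR 4.0.16 (R 4.3.3) in 1 quasi-likelihood model of 4 group means over all 16 libraries, with TMM scaling and a common biological coefficient of variation of 0.0497. P-values were adjusted by Benjamini-Hochberg over all tested genes. CPM (counts per 1000000) use TMM-scaled library sizes. Totals of 16058856 to 16648151 counts per library limit the precision at low counts. The members and lists were chosen with earlier results of these data known. Members given with every library are the 3 of each subunit with the smallest adjusted p in each comparison and those called in both knockouts; MRPL11, MRPL54 and MRPS11 were added after their values were seen. Alternatives were other scalings, filters, thresholds and controls, DESeq2 1.42.0, a replicate block, summed copies and the omission of each library. The procedure was tested on simulated data. Promoters and positions are from RefSeq (GRCh38.p14), transcript lengths and exon overlaps from GENCODE v29. Of the 15569 tested genes, 14183 could be placed for the search of neighbours. One further cell marker is not reported here.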

Additional observations from a re-analysis of the deposited data

Results flagged for a closer look

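In 5 of the 64 groups of 4 values examined, 1 library stood apart from the other 3 by Dixon's test, where about 3.2 would by chance, since it flags 1 group in 20. Divided by the range of the group, the distance of that library from its closest fellow was 0.848 for MRPL12, 0.867 for MRPL46 and 0.881 for the summed large subunit in the SLC30A10 control set, each time because replicate 3 was high. In that library MRPL12 was at 93.7 CPM against a mean of 84.0 in the other 3, and the large subunit summed to 3740 CPM against 3408. The share was 0.953 for MRPL16 in the second knockout, where replicate 1 was low (85.4 against 90.8 CPM), and 0.836 for MRPS12 in the SLC30A10 knockout, where replicate 2 was low (40.6 against 46.6 CPM).

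For 16 members the effect of the SLC30A10 knockout differed from that of the second knockout by the test of the difference itself (edgeR, adjusted over all tested genes). On the log2 scale the SLC30A10 effect was more positive by 0.40 for MRPL18, 0.32 for MRPL16, 0.31 for MRPL19, 0.26 for MRPL12, 0.25 for MRPL48, 0.21 for MRPL3, 0.20 for MRPL4 and 0.17 for MRPL28. In the small subunit it was more positive by 0.19 for MRPS22, 0.19 for MRPS26 and 0.18 for MRPS15. The difference was -0.73 for MRPL34, -0.24 for MRPS2, -0.23 for MRPL40, -0.22 for MRPS30 and -0.18 for MRPL44. The calls of MRPS22 and MRPS26 were lost on leaving out any 1 of 6 and any 1 of 9 libraries, with adjusted p up to 0.0741 and 0.0768 by edgeR.

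Among entries that are not members, 4 that share a member's name had reads in every library: the second numbered entry of MRPL45 at a mean of 60.3 CPM over the 16 libraries, the pseudogene MRPS31P5 at 8.99, the pseudogene MRPL45P2 at 4.50 and the second numbered entry of MRPS36 at 4.24.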

How the results depend on the processing

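The counts of called members in the SLC30A10 knockout (21), the second knockout (6), the difference of their effects (16) and between the control sets (39) stayed within 1.5 times of these values under every scaling tried, DESeq2, both other filters, fits of the compared groups alone and summed copies. At an adjusted p under 0.01 the second knockout kept 2 calls and the difference 5. With a log2 fold change of at least 0.5 as well, the counts were 0, 1, 1 and 0, because nearly all changes were smaller. Against both control sets pooled, 35 members passed for the SLC30A10 deletion and 33 for the second, and MRPS2 in the SLC30A10 knockout turned from -0.14 to 0.0357 and did not pass. Leaving out each library in turn gave 16 to 23, 4 to 8, 10 to 15 and 32 to 42 calls. Under the other scalings the log2 ratios of the summed subunits moved by less than the spread between libraries (pooled SD 0.0417 for the large and 0.0366 for the small subunit). This does not extend to both control sets pooled, since the sets themselves differed by 0.0969 and 0.1572 (log2, large and small).

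With the replicate number as a block the counts were 22, 7, 14 and 39. The deviations of same-numbered libraries from their group means had correlations from -0.10 to 0.12. These correlations cannot tell whether such libraries shared a culture or a handling step. All scalings moved the median of all genes by under 0.03 (log2). Depth limits what can be said of MRPS24, at 0 to 8 counts per library, and nothing is measured for MRPS18B, listed at 0.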
